A study of Canis lupus familiaris with 10 samples.

Results

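SPP1, THY1 and 4 further genes of the connective tissue matrix, FN1, COL1A1, COL3A1 and MMP9, were described in early and late canine cutaneous histiocytoma (CCH), a skin tumor of Langerhans cell origin that dogs usually clear without treatment. They were selected on their measured levels in the contrast between the stages, as a set of 10 stromal genes, and 6 of the 10 are among the 800 genes of the nCounter Canine IO Panel table (VCAN, FAP, COL5A1 and COL6A3 were not analysed here). The stage differences of these 6 genes are therefore given as a description without a test. Their variation within a stage and the genes of related roles were not used to choose them. The lists of related genes were, however, drawn up with earlier results of these data known, so that their adjusted p values are not from an independent test.

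The tissue came from formalin-fixed, paraffin-embedded (FFPE) tumors of 10 pet dogs, each dog giving 1 tumor, with total RNA extracted after adjacent tissue had been cut away. Early CCH were 5 tumors of group 1 of the Cockerell and Slauson scheme, from French Bulldogs (early 1, aged 0.5 years, and early 5, aged 3 years), a Goldendoodle (early 2, 0.75 years), a Terrier (early 3, age not given in the labels) and a Boxer (early 4, 5 years). Late CCH were 5 tumors of group 3, labelled as enriched in lymphocytes, from a Rottweiler (late 1, 1.5 years), a Beagle (late 2, 9 years), a Pug (late 3, 2.5 years), a Bullterrier (late 4, 2 years) and a Jack Russell Terrier (late 5, 7 years). Early 1 and early 4 came from neutered males, early 2 from a male and early 5 from a female. The sex of the dog of early 3 is not given. Late 1 came from a neutered male, late 3, late 4 and late 5 from males and late 2 from a female. None of the labels gives a treatment, and the tumors of both stages share the FFPE archive and the extraction kit.

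The matrix of the dermis is built mainly from fibrillar collagens, which fibroblasts secrete, and from glycoproteins such as fibronectin that tie cells to them. SPP1 (osteopontin) is a secreted phosphoprotein that cells bind through integrins and CD44, and it is made by activated macrophages, some T cells and mineralising tissues. THY1 (CD90) is a surface glycoprotein of fibroblasts, pericytes, activated endothelium and, depending on the species, thymocytes and T cells. In dogs, THY1 is found on T cells, and it is also used to tell dermal dendritic cells from Langerhans cells, which lack it. FN1 encodes fibronectin, COL1A1 and COL3A1 encode chains of type I and type III collagen, and MMP9 encodes a gelatinase released by neutrophils and macrophages.

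The libraries of the stages also differed technically. Recovered barcode counts ran from 484696 to 823763 in early and from 945399 to 1253083 in late CCH (exact two-sided permutation p = 0.00794, the smallest that 5 against 5 samples allow). DV200, the percentage of longer RNA fragments, was 64.5 to 71.2 in early and 71.2 to 75.8 in late CCH (n = 5 tumors each, exact permutation p = 0.0238). The background in normalized counts was 21.8 to 38.2 in early and 19.2 to 26.9 in late CCH (n = 5 tumors each, exact permutation p = 0.0238). The ratio of the strongest spiked-in controls did not overlap between the stages (2.09 to 2.17 and 2.72 to 2.84). The stages were run on separate cartridges and extracted in separate batches, so that these and stage cannot be told apart. The T cell markers followed the labels, with summed levels of 732 to 13313 normalized counts in early and 20289 to 34714 in late CCH. None of 9 Langerhans and dendritic cell markers was below background in every tumor, although DLA-DRA and CD74, which other antigen-presenting cells share, held 58.7% and 36.9% of their sum.

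Every tumor had all of the 6 genes above its own background, which is the mean plus 2 SD of the negative probes. The lowest level relative to background was 1.66 times for MMP9, 5.10 times for SPP1, 19.0 times for THY1, 20.1 times for FN1, 38.9 times for COL1A1 and 62.4 times for COL3A1. MMP9 was thus the gene nearest to background. Levels of different genes are not compared with each other, because each probe binds its target with its own efficiency.

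SPP1 was low in all early tumors but 1. Its normalized counts were 244, 3079, 235, 180 and 326 in early 1 to early 5. In late 1 to late 5 they were 7486, 4597, 1685, 6030 and 5645. Early 2 lay above late 3, so that the stages overlapped, whereas the other 4 early tumors were below every late tumor and the other 4 late tumors above every early one. The early mean was 813 ± 1268 and the late mean 5089 ± 2166 (SD, n = 5 each). The log2 fold change, early minus late, was -3.50 with a standard error of 0.74, an 11.3-fold higher geometric mean in late CCH. Without early 2 it was -4.24, with a standard error of 0.41, and with DV200 in the fit it was -4.43, with a standard error of 1.12.

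THY1 was the only one of the 6 genes whose stages did not overlap. It had 629, 724, 663, 713 and 889 normalized counts in early 1 to early 5. It had 1931, 2563, 1320, 2650 and 2644 in late 1 to late 5. The early tumors lay close together and the lowest late tumor, late 3, was still above the highest early tumor, early 5. The early mean was 724 ± 99.9 and the late mean 2222 ± 587 (SD, n = 5 each). The log2 fold change was -1.58 with a standard error of 0.21, or 2.99-fold higher in late CCH. Scaling each tumor to the geometric mean of all tested genes in place of the housekeeping genes gave -1.19 (over all tested genes the median difference moved from -0.18 to 0.21), and adding DV200 to the fit gave -2.05.

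FN1 spread widely among early tumors and little among late ones. The early tumors had 3218, 7387, 654, 1504 and 6226 normalized counts of FN1. The late tumors had 4218, 6779, 4397, 5016 and 3918. Early 2 and early 5 stood at the upper end of the late range or above it, while early 1, early 3 and early 4 lay below every late tumor. The early mean was 3798 ± 2927 and the late mean 4865 ± 1143 (SD, n = 5 each), with a log2 fold change of -0.82 and a standard error of 0.59. This value moved to -0.30 without early 3 and to -1.97 with DV200 in the fit, where early 3 had the highest and early 5 the lowest DV200 of the early tumors.

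The collagens overlapped between the stages throughout. COL1A1 had 5883, 12682, 1261, 3644 and 10721 normalized counts in early 1 to early 5. It had 12702, 10792, 4714, 7151 and 3342 in late 1 to late 5. The highest early and the highest late tumor were thus nearly level, and the lowest value of all was that of early 3. The log2 fold change was -0.41 with a standard error of 0.62, with an early mean of 6838 ± 4781 and a late mean of 7740 ± 3962 (SD, n = 5 each). Without early 3 it was 0.09, and with DV200 in the fit -1.44.

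COL3A1 ran in the same order among the early tumors. It had 8797, 22664, 2027, 4049 and 14624 normalized counts in early 1 to early 5. It had 16716, 13356, 6033, 9087 and 4788 in late 1 to late 5. Early 2 was the highest of all 10 tumors and early 3 the lowest. The early mean was 10432 ± 8386 and the late mean 9996 ± 5003 (SD, n = 5 each), and the log2 fold change was -0.26 with a standard error of 0.63. The direction was not settled, since it was 0.21 without early 3, 0.13 under geometric mean scaling and -1.29 with DV200 in the fit.

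MMP9 was low in both stages. It had 101, 103, 69.8, 82.4 and 58.7 normalized counts in early 1 to early 5. It had 86.8, 146, 36.7, 60.4 and 191 in late 1 to late 5. Late tumors held both the highest and the lowest value. The early mean was 82.97 ± 19.3 and the late mean 104 ± 63.4 (SD, n = 5 each), with a log2 fold change of -0.12 and a standard error of 0.42 that turned positive under geometric mean (0.27), TMM (0.07) and quantile scaling (0.34).

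**Figure D1:**
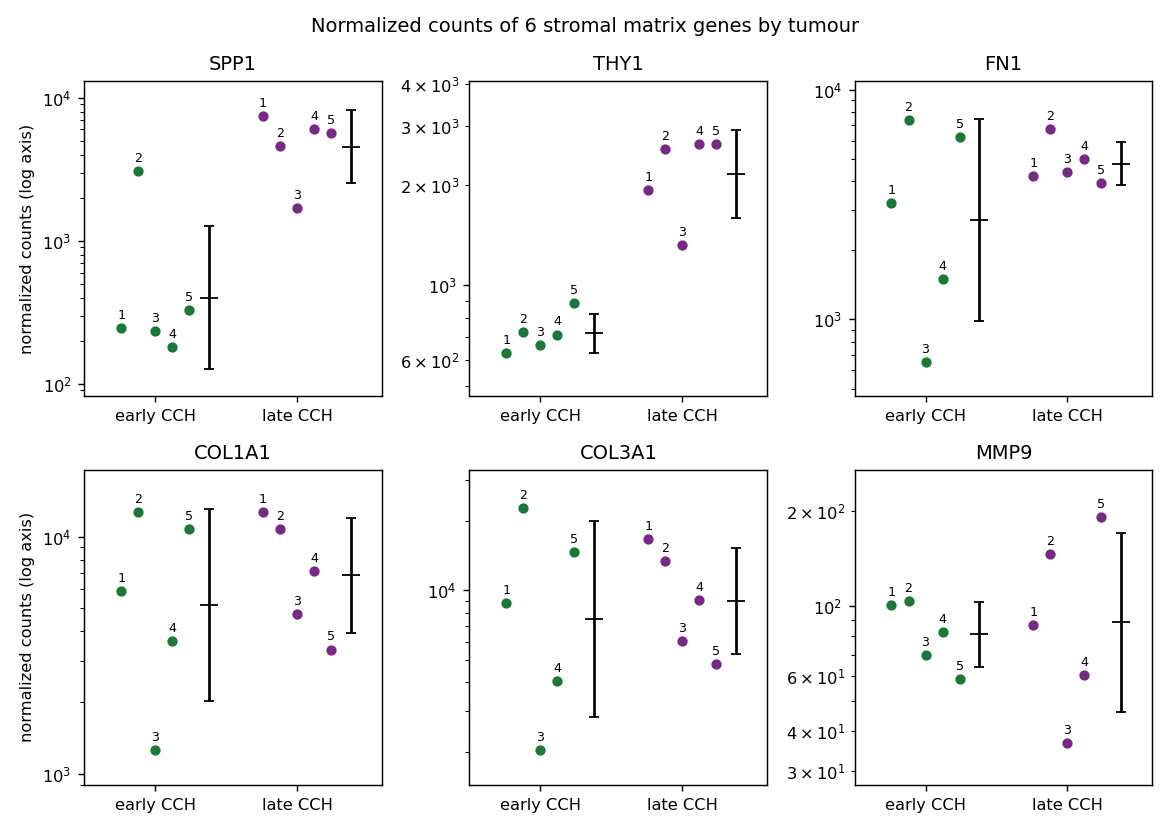
Normalized counts (log axis) of 6 stromal matrix genes in 5 early (green) and 5 late (purple) CCH tumors, numbered within their stage, with the geometric mean and 1 SD of the log2 values as black bars. THY1 has no overlap between 629 to 889 in early and 1320 to 2650 in late tumors, SPP1 overlaps through early 2, FN1 has 3 early tumors below every late tumor, and COL1A1, COL3A1 and MMP9 overlap over most of their ranges.

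Of the 6 genes, 2 (SPP1 and THY1) lay past the limits of the limma fit, which were a 2-fold difference and 0.05 for the p adjusted by Benjamini and Yekutieli (BY), where 11.2% of the 761 tested genes did, 9.20% higher in late and 1.97% higher in early CCH. At 0.05 for the p adjusted by Benjamini and Hochberg (BH), the share of tested genes was 35.7%. Stages that did not overlap were found for 1 of 6 genes, against 24.6% of tested genes. As the genes were chosen with this contrast in view, nothing is read from these counts. The authors, who also used the BY adjustment and a fold change limit, reported no gene past their limits between the stages on this platform. The genes past the limits here, the related genes below included, therefore differ from that outcome. The cause of this difference was not tested. SPP1 was past the limits in 7 of 22 alternatives and in 2 of the 10 fits without 1 tumor, and it was not under geometric mean (-3.11), TMM (-3.31) and quantile scaling (-3.14). With DV200, the replicate block or male dogs only in the fit, neither SPP1 nor THY1 was past them.

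**Figure D2:**
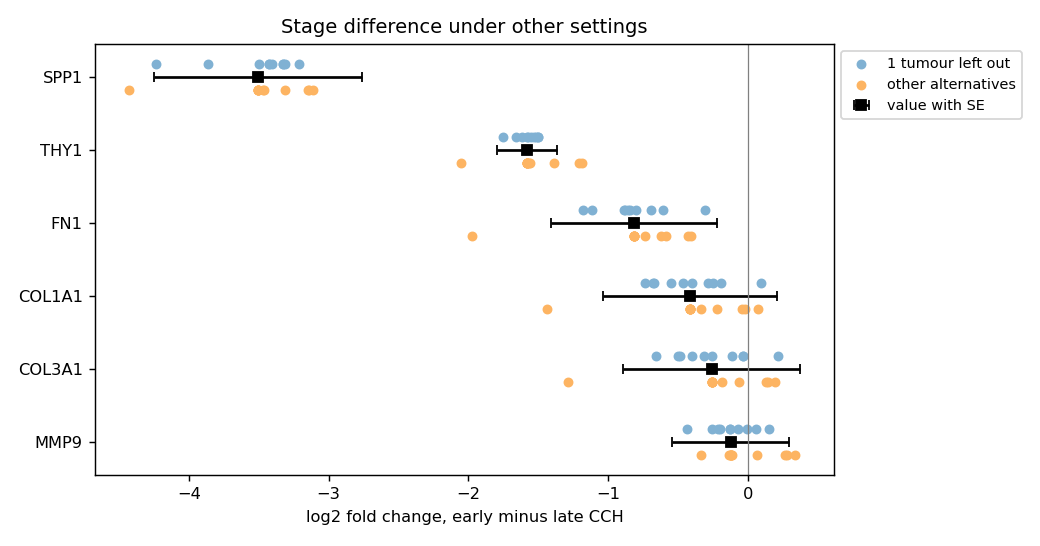
Log2 fold change, early minus late CCH, of each gene (black square with its standard error), in the 10 fits that each left out 1 tumor (blue) and in 12 other alternatives (orange), with a line at 0. All values of SPP1, THY1 and FN1 lie below 0, whereas those of COL1A1, COL3A1 and MMP9 lie on both sides.

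The genes differed in how much they varied within a stage. The SD of log2 values within a stage had a median over tested genes of 0.45 in early and 0.38 in late CCH. SPP1 had 1.67 in early and 0.84 in late CCH, more than 95.5% and 89.2% of tested genes. Its highest early value was 17.1 times the lowest, against 4.44 times in late CCH. This spread rested on 1 tumor in each stage, since the SD was 0.35 over the 4 early tumors without early 2 and 0.29 over the 4 late tumors without late 3. Leaving out the tumor farthest from its stage mean was chosen after seeing the data. The median over tested genes was not taken in this way, so that it is not compared with these values. THY1 had an SD of 0.19 in early CCH, with 9.20% of tested genes below it, and of 0.44 in late CCH (0.22 without late 3). The fibrillar collagens and fibronectin had early SDs of 1.34 (COL1A1), 1.40 (COL3A1) and 1.46 (FN1), each above at least 90.3% of tested genes. Without early 3 these were 0.83, 1.07 and 1.04. In late CCH the collagens kept SDs of 0.80 (COL1A1) and 0.76 (COL3A1), above 88.2% and 85.5% of genes, whereas that of FN1 was 0.31, with 39.3% of genes below it (0.15 without late 2). MMP9 went the other way, with 0.34 in early and 0.95 in late CCH.

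After the mean of each stage was taken off, the 2 collagens moved together from tumor to tumor. Pearson's r between COL1A1 and COL3A1 was 0.985 and Spearman's rho 0.988 over 10 tumors, and r was 0.979 without early 3, the tumor farthest from its stage mean in both. Each was the other's closest gene among all tested genes. The log2 difference between COL1A1 and COL3A1 within a tumor had an SD of 0.26 in early and 0.081 in late CCH, far below the SD of either gene. These correlations are descriptions over tumors that share a platform and a scaling. Under geometric mean scaling r was likewise 0.985.

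FN1 went with the collagens in early tumors. Its r was 0.904 with COL3A1 and 0.890 with COL1A1 over 10 tumors, and 0.824 and 0.755 without early 3. The log2 difference between FN1 and COL3A1 within a tumor had an SD of 0.16 in early and 0.66 in late CCH, the latter 0.33 over the 4 late tumors without late 1. Among late tumors, late 1 had the highest collagen levels but only the fourth highest FN1. Late 5 had the lowest level of both collagens and the lowest FN1.

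The genes closest to the collagens after each other were TNFRSF1A, a receptor of tumor necrosis factor, and NLRP3, an inflammasome sensor. For COL3A1, r was 0.966 with TNFRSF1A and 0.942 with NLRP3 over 10 tumors, and 0.956 and 0.933 without early 3. For COL1A1, r was 0.950 with TNFRSF1A and 0.908 with NLRP3. Under geometric mean scaling r was 0.930 and 0.870 for COL3A1, and 0.918 and 0.844 for COL1A1.

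SPP1 and THY1 had an r of 0.364 and a rho of 0.430 over 10 tumors, but r was 0.736 over 9 without early 2 and 0.02 without late 3, so that their likeness was not settled. The genes nearest to SPP1 were IL4R (r = 0.931), a receptor chain for interleukin 4, CSF3R (r = 0.918), the receptor of the granulocyte growth factor, and LOC102153988 (r = 0.914). All of them rested in part on early 2, without which r was 0.689, 0.710 and 0.552 over 9 tumors. Under geometric mean scaling r was 0.760 for IL4R, 0.926 for CSF3R and 0.906 for LOC102153988, so that the order depended on scaling. The genes nearest to THY1 were MKI67 (r = 0.783), a proliferation marker, CD44 (r = 0.775), a receptor of hyaluronan and SPP1, and CXCL11 (r = 0.758), an interferon-induced chemokine. Without late 3, the tumor with the lowest late THY1, these were 0.341, 0.129 and 0.783, so that of these genes CXCL11 alone stayed near its value. With geometric mean scaling over 10 tumors they were 0.804, 0.789 and 0.665. MMP9 was nearest to ITGB1 (r = 0.903), the integrin beta 1 chain, and had an r of 0.813 with CD9, a tetraspanin, over 10 tumors. Its r under geometric mean scaling was 0.781 with ITGB1 and 0.817 with CD9.

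**Figure D3:**
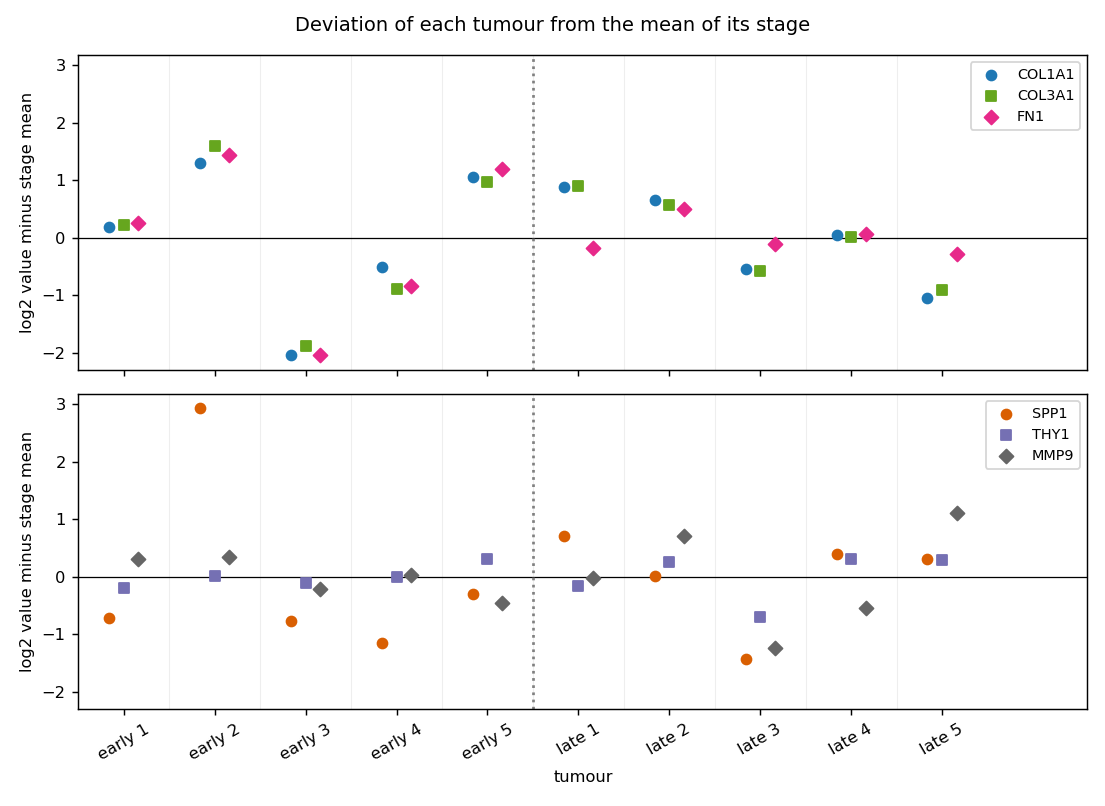
Deviation of each tumor from the mean of its stage on the log2 scale, for COL1A1, COL3A1 and FN1 (upper panel) and SPP1, THY1 and MMP9 (lower panel), with a dotted line between early and late CCH. COL1A1, COL3A1 and FN1 lie together in each early tumor, from early 2 at the top to early 3 at the bottom, and SPP1 of early 2 stands above all other points of its panel.

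Of the marker lists, those of macrophages and of fibroblasts and perivascular cells had the highest r with SPP1. The mean deviation of 13 macrophage markers had an r of 0.874 and a rho of 0.794 with SPP1 over 10 tumors, and an r of 0.825 over 9 without early 2. For 7 fibroblast and perivascular markers r was 0.832 and rho 0.770, and r was 0.595 without early 2. The summed level of the macrophage markers was 5467, 14027, 7307, 4238 and 9097 normalized counts in early 1 to early 5 and 17614, 10945, 9691, 13575 and 11873 in late 1 to late 5. Early 2, the early tumor with high SPP1, thus had the highest macrophage sum of its stage, and late 3, with the lowest late SPP1, had the lowest of the late tumors. Of tumors with like macrophage sums, early 5 (9097) and late 3 (9691) had 326 and 1685 normalized counts of SPP1. Early 2 (14027) and late 4 (13575) had 3079 and 6030. C1QB, a chain of the first complement component, held 25.1% of the macrophage sum and CSF1R, the receptor of the macrophage growth factor, 15.0%. Whether the number of macrophages or their SPP1 level differed was not tested, since in bulk tissue fewer cells of a type and less RNA per cell cannot be told apart. The Langerhans and dendritic cell markers ran opposite to SPP1, with an r of -0.79 over 10 tumors and -0.59 over 9 without early 2.

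THY1 varied little among early tumors that differed widely in T cell markers. Their summed level was 732, 4074, 13313, 10553 and 1743 normalized counts in early 1 to early 5, an 18.2-fold range over which THY1 varied by 1.41-fold. Early 3, with the highest early T cell sum, had 663 normalized counts of THY1 and early 1, with the lowest, had 629. In late 1 to late 5 the sum was 34714, 26979, 20289, 31932 and 25488. Late 3 had both the lowest T cell sum and the lowest THY1 of its stage, whereas late 1, with the highest sum, had the second lowest THY1. The mean deviation of 14 T cell markers had an r of 0.02 with THY1 over 10 tumors, in which the wide spread of the early T cell markers weighs most. Under geometric mean scaling this r was -0.35. Between the stages THY1 and the T cell markers were both higher in late CCH. The r of THY1 with 7 fibroblast and perivascular markers was 0.294 over 10 tumors and -0.10 over 9 without late 3.

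The collagens were compared with cell type markers and with the other matrix genes. COL3A1 had an r of 0.632 with the fibroblast and perivascular markers, and 0.869 over 9 tumors without early 3, and of 0.640 with the macrophage markers, likewise 0.869 without early 3. COL1A1 had 0.544 and 0.536, and 0.822 and 0.796 without early 3. With the neutrophil markers r was 0.590 for both collagens, and 0.332 (COL1A1) and 0.361 (COL3A1) without early 3. With 13 other matrix genes r was 0.643 for COL1A1 and 0.699 for COL3A1, and 0.715 and 0.752 without early 3, so that the order of these lists changed with a single tumor. The fibroblast and perivascular sum was 2723, 5365, 2548, 1982 and 3117 normalized counts in early 1 to early 5 and 4780, 5252, 3259, 5158 and 3970 in late 1 to late 5. Early 3 had the lowest collagen levels without the lowest fibroblast sum. The Langerhans and dendritic cell markers ran opposite to FN1 and both collagens. Over 10 tumors r was -0.70 for FN1, -0.70 for COL3A1 and -0.58 for COL1A1, and over 9 without early 3 it was -0.79, -0.72 and -0.57. The r of FN1 with the T cell markers was -0.60, and -0.32 without early 3, and early 3 and early 4, the early tumors lowest in FN1 and both collagens, had the highest early T cell sums. The part of these cells in the level of the matrix genes was not tested.

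**Figure D4:**
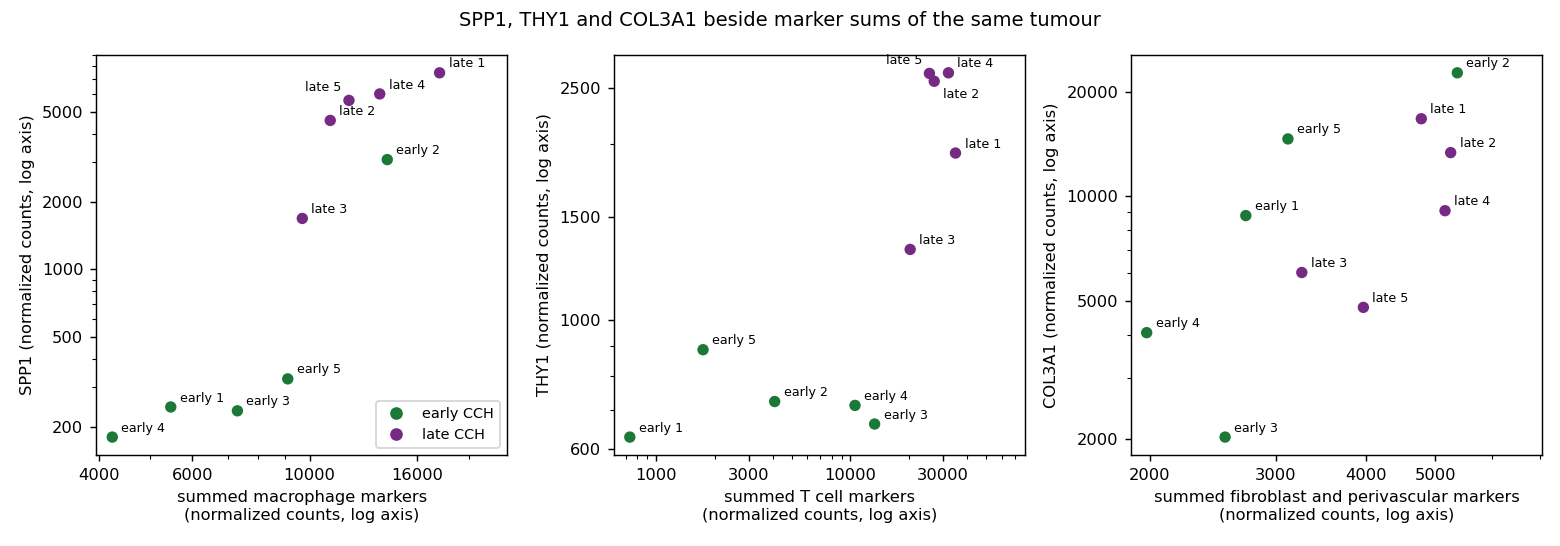
SPP1, THY1 and COL3A1 of each tumor against the summed normalized counts of macrophage, T cell, and fibroblast and perivascular markers (all axes logarithmic), in early (green) and late (purple) CCH. SPP1 is high in early 2, which also has 14027 counts of macrophage markers, while THY1 stays between 629 and 889 in early tumors over T cell sums from 732 to 13313.

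Genes of related roles were tested between the stages in the same fit. Of these 97 genes, 11 passed the BY and 2-fold thresholds, a share near the 11.2% of all tested genes, and 0 did so with DV200 in the fit or with male dogs only (26 and 43 at an unadjusted p under 0.05 in limma). Among 7 fibroblast and perivascular markers, 1 passed the BY and 2-fold thresholds, higher in late CCH, and the median log2 fold change was -0.52, beside -0.18 over all tested genes. That gene was FGFR1, a fibroblast growth factor receptor. It had 117, 254, 147, 100 and 174 normalized counts in early 1 to early 5. In late 1 to late 5 it had 1033, 588, 369, 484 and 693, all above the early tumors. Its log2 fold change was -1.98 with a standard error of 0.32 (limma BY adjusted p = 0.0161), and the call was lost under quantile normalization at -1.39. CXCL12, a chemokine of stromal cells, passed only the BH threshold, at -1.08 (limma BH adjusted p = 0.0376), whereas MCAM, a pericyte and endothelial adhesion molecule, had 0.05.

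Of 13 other matrix proteins and genes of matrix assembly and turnover, 1 passed, higher in early CCH, with a median of -0.14. SERPINB2, an inhibitor of the urokinase plasminogen activator, had 1381, 723, 1390, 666 and 983 normalized counts in early 1 to early 5. In late 1 to late 5 it had 40.9, 231, 176, 23.2 and 166. All early tumors were above all late tumors. Its log2 fold change was 3.40 with a standard error of 0.62 (limma BY adjusted p = 0.0238). PLAU, which encodes urokinase itself, had the lowest value of the list at -1.04 (limma BY adjusted p = 0.560). The call of SERPINB2 was lost without early 1, without early 5 and without late 1, with log2 fold changes of 3.11 to 3.40.

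Among 14 receptors of SPP1, fibronectin, collagen and THY1, 2 passed, both higher in late CCH, with a median of -0.27. LAIR1, an inhibitory collagen receptor of leukocytes, had 94.2, 114, 169, 130 and 116 normalized counts in early and 735, 584, 515, 364 and 736 in late 1 to late 5. Its stages were far apart, with a log2 fold change of -2.21 and a standard error of 0.24 (limma BY adjusted p = 0.00476). SDC4, a heparan sulfate proteoglycan that binds fibronectin, had 394, 1723, 591, 446 and 769 in early and 3372, 2506, 1856, 2048 and 2577 in late 1 to late 5. Early 2 was again the highest early tumor and came close to late 3. The log2 fold change of SDC4 was -1.84 with a standard error of 0.37 (limma BY adjusted p = 0.0343), and the call held in 2 of the 10 fits without 1 tumor and was lost under geometric mean (-1.45) and quantile scaling (-1.43). At the BH threshold 6 of the 14 were higher in late and 1 in early CCH, where 27.3% and 8.41% of tested genes were. The first group held CD44, a receptor of SPP1, at -0.65 (limma BH adjusted p = 0.0326), and the second was ITGAV, the integrin alpha V chain that binds SPP1 and fibronectin, at 0.52 (limma BH adjusted p = 0.0308).

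Among 5 genes of TGF-beta and PDGF signalling, which drive collagen synthesis, 1 passed, with a median of 0.04. SMAD3, which carries the TGF-beta signal to the nucleus, had 33.9, 71.2, 67.9, 72.5 and 56.8 normalized counts in early and 285, 207, 198, 182 and 160 in late 1 to late 5. The stages did not overlap, and the log2 fold change was -1.78 with a standard error of 0.26 (limma BY adjusted p = 0.0107). SMAD2, which carries the same signal, had 0.39 (limma BY adjusted p = 0.389). TGFB2, a ligand, passed the BH threshold only, at -1.14 (limma BH adjusted p = 0.0186).

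The cell type markers were read against the shares over the whole fit, which were 11.2% for the BY and 2-fold call and 27.3% for the BH call in the late direction. Of 13 macrophage markers 1 passed, CD68, a lysosomal glycoprotein, at -1.29 (limma BY adjusted p = 0.0293), a call that held in 4 of the 10 fits without 1 tumor and was lost under all 3 other scalings (-1.10 to -0.90). The median of the macrophage list was -0.42, from -2.14 for C1QB to 1.00 for MRC1, the mannose receptor, and neither of these passed the BY threshold, although MRC1 did so under geometric mean (1.39) and quantile scaling (1.50), higher in early CCH. At the BH threshold 4 of the 13 macrophage markers were higher in late CCH (CD68, MSR1, C1QB and MERTK) and 0 in early CCH. Of 14 T cell markers 3 passed, CD6 (-3.23), CD5 (-2.94) and CD4 (-2.86), all 14 were past the BH limit in the same direction, and the median was -2.87, with the highest value for TRAT1 (-1.97, limma BY adjusted p = 0.154). Of 9 Langerhans and dendritic cell markers 2 passed, FLT3 (2.49), a growth factor receptor of dendritic cells, and FCER1A (2.44), the IgE receptor alpha chain, both higher in early CCH, with a median of -0.11 and the lowest value for CCR7 (-1.68). The BH threshold was passed by FLT3 and FCER1A, higher in early CCH, and by CD83 and CCR7, higher in late CCH. Of the BY and 2-fold calls, those of CD6 and FLT3 held in all 10 fits without 1 tumor, CD5 in 6, CD4 in 5 and FCER1A in 2. None of 7 endothelial, 6 keratinocyte and 11 neutrophil markers was called in limma at the BY and 2-fold limits. Their medians were -0.41, 0.56 and 0.24, and 3, 0 and 1 of them passed the BH threshold, higher in late CCH (3, 0 and 1 at an unadjusted p under 0.05). Their lowest and highest log2 fold changes were -0.98 (CDH5) and 0.07 (TAL1) in the endothelial, -0.44 (EGFR) and 0.89 (EPCAM) in the keratinocyte and -2.31 (LTF) and 1.87 (S100A9) in the neutrophil list. The neutrophil sum ran from 1599 to 38109 normalized counts in early and from 1404 to 36225 in late CCH, and the r of MMP9 with these markers was 0.666 over 10 tumors and 0.523 over 9 without late 3. With the keratinocyte markers the r of MMP9 was 0.739, and 0.750 without late 3.

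**Figure D5:**
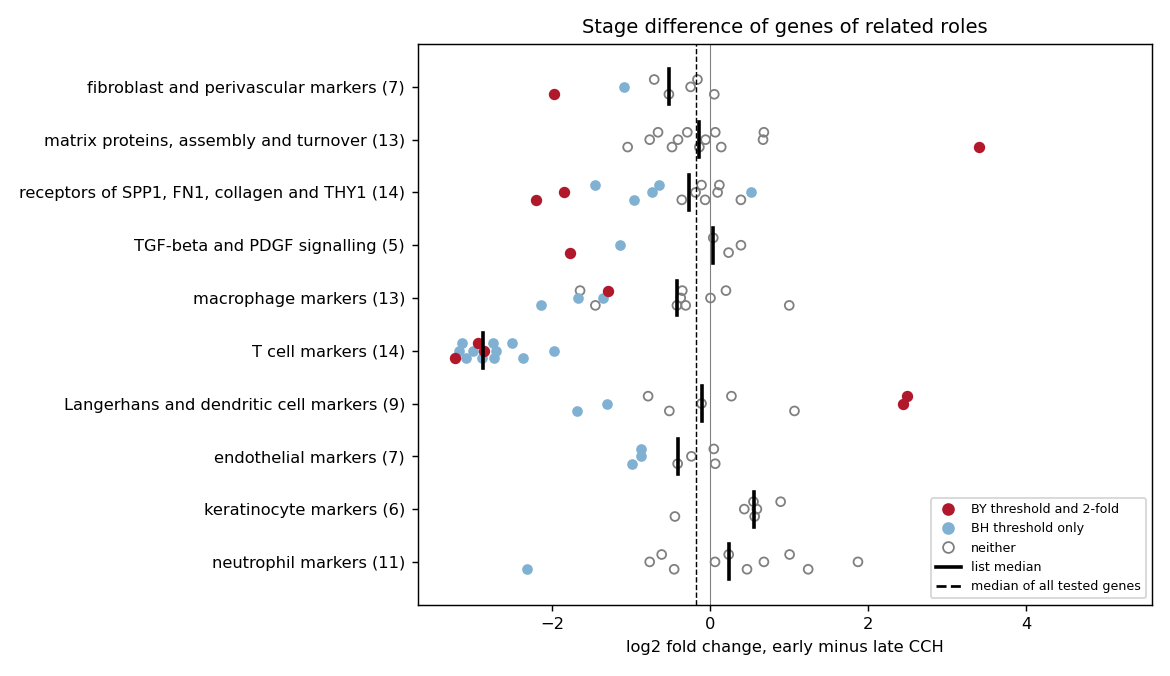
Log2 fold change, early minus late CCH, of the tested genes of 10 lists, with the number of genes in brackets, filled red where the BY and 2-fold thresholds were passed and blue where only the BH threshold was. Thick lines mark list medians and the dashed line the median of all tested genes (-0.18), and the T cell markers lie farthest to the left, with a median of -2.87.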

How the data were processed

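The authors hybridized total RNA to the panel, imported the barcode counts into nSolver 4.0 and normalized them with default settings to positive controls and housekeeping genes. The deposited values are this signal, called normalized counts. Of 800 genes, 761 with a mean of at least 20 over the 10 samples were tested in limma 3.58.1 (R 4.3.3, lmFit and eBayes with trend) on log2(normalized count + 1), with late CCH as baseline and no covariates, and a fold change on this scale understates low genes. The fit was tested on simulated data. Counts were recovered from the step between values (tolerance 0.0051) for depth only. Marker sums add normalized counts, and deviations average log2 values. Genes, lists and tests were chosen with earlier results of these data known. Named were the 6 genes, list genes past the BY and 2-fold thresholds, the highest and lowest gene of each list, and the 3 genes nearest to each of the 6, of which some are not reported here. CXCL12, TGFB2, CD44, ITGAV and marker genes that lead a sum were added after their values were seen. CTSG and ITGAX stand in 2 lists each. All 6 symbols matched RefSeq. Figures were drawn with matplotlib 3.10.9.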

Additional observations from a re-analysis of the deposited data

Results flagged for a closer look

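In 62 groups of 5 tumors, 4 (6.45%) held a tumor whose gap to its nearest neighbor exceeded Dixon's limit as a share of the range. Chance alone gives 5% where values are normally distributed. The limit was applied to normalized counts and not to log2 values, and skewed counts can pass it more often. Of the 12 groups of matrix genes, 1 did. SPP1 of early 2 was 3079 normalized counts, against 180 to 326 in the other early tumors, a gap of 0.950 of the range. SDC4, a fibronectin-binding proteoglycan, was also high in early 2 (1723 against 394 to 769, 0.717 of the range). S100A9, a neutrophil calcium-binding protein, reached 6762 in late 2, where the remaining late tumors had 89.6 to 1410 (0.802), and TAL1, an endothelial and blood cell factor, was 68.6 in late 2 against 27.0 to 35.3 (0.800).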

How the results depend on the processing

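SPP1, THY1 and FN1 kept their direction in all 22 alternatives that were run, COL1A1 in 20, COL3A1 in 18 and MMP9 in 16. The log2 fold change of THY1 was -1.19 under geometric mean scaling, -1.21 under quantile normalization and -2.05 with DV200 in the fit, and with DV200 SPP1 had -4.43, FN1 -1.97, COL1A1 -1.44 and COL3A1 -1.29, and the cause was not tested. Leaving out 1 tumor gave -4.24 to -3.21 for SPP1 and -1.75 to -1.50 for THY1. In place of the 85 genes past the BY and 2-fold thresholds, the BH threshold with 2-fold gave 188. With DV200 as a covariate limma called 0 genes (45 past the BH limit, 197 at an unadjusted p under 0.05), with male dogs alone (3 early, 4 late) 0 (133 and 278), and leaving out 1 tumor gave 39 to 98, the lowest without late 1. Among the list genes these counts were 11, 31, 0, 0 and 5 to 14 (at an unadjusted p under 0.05, 26 with DV200 and 43 with male dogs alone), and 17 with the extraction batch as a random block. As each batch lay within 1 stage and the consensus correlation was -0.14, the batch fit cannot remove a batch difference between the stages. The replicate block left 1 gene and 0 list genes called (228 and 34 at the BH threshold), but same-numbered tumors came from different dogs, and the correlations of their deviations ran from -0.20 to 0.16, with 1 of 5 early tumors correlating best with its own number, so that the numbers share only a name. Scaling moved the split of early against late calls from 15 and 70 to 42 and 34 (geometric mean), 27 and 51 (TMM) and 46 and 35 (quantile). EGFR turned to 0.18 under quantile normalization, and without single tumors MCAM ran from -0.19 to 0.39 and TAL1 from -0.12 to 0.32. Planned count tests were not run, because the control rows are on another scale than the gene rows. Of the 6 matrix genes MMP9 came nearest to background, at 1.66 times in its lowest tumor, and among the list genes named CD6 (16.9 in early 1, background 21.8), TAL1 (early 3 and early 5), CDH5 and TRAT1 (3 early tumors each) lay below it in some tumors.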
